A study of Mus musculus with 3 samples.

Results

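The aminoacyl-tRNA synthetase genes encode the enzymes that load each amino acid onto its transfer RNA. They were chosen by name, as 20 genes for cytosolic enzymes and 16 genes for mitochondrial enzymes, and all 36 were found among the 50600 genes of each deposited count table. Counts came from 3 RNA-seq libraries of a single group, mouse T-helper 1 (Th1) cells. These were primary cells of strain C57BL/6NJ, and the labels point to a protocol for differentiating CD4+ T cells. No treatment, deletion or transgene is named, the age is given as unknown and the sex as not collected, and the table headers carry the words 24hr. All libraries have 1 donor entry. Nothing states that they came from separate animals or cultures, so the spread between replicates 1, 2 and 3 may be technical. With 1 group there is no contrast between conditions, and the questions the data allow are how high each gene stood, how the cytosolic and mitochondrial genes compared, and where the libraries differed by more than counting error.

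Each synthetase recognises 1 amino acid and its transfer RNAs, uses ATP to activate the amino acid, and joins it to the end of the RNA, so the enzymes supply every ribosome with its substrates. Protein synthesis in the cytosol and in mitochondria uses separate sets of these enzymes, all encoded in the nucleus, and activated T cells are known for raising protein synthesis as they grow and divide. In mammals Gars and Kars each serve both compartments, and Eprs joins the glutamate and proline enzymes in 1 protein. In the names used here, the first letter is the amino acid in its usual code (Nars for asparagine) and a final 2 marks the mitochondrial enzyme. Farsa and Farsb encode the subunits of the cytosolic phenylalanine enzyme.

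Several cytosolic synthetase genes are known targets of ATF4, the transcription factor of the amino acid response. Promoter windows (250 bases before to 50 bases after the annotated start, 5′ to 3′ on the strand of the gene) were taken from RefSeq on GRCm38.p6. An entry was matched for 27 of the 36 genes, and not for Cars, Hars, Hars2, Lars, Nars, Pars2, Rars, Vars and Wars. Each window was searched on both strands for TTGCATCA, the core of the element that ATF4 binds with C/EBP factors, for its looser form TGATGNAA (N is any base), and for CACGTG, the E-box bound by MYC and related factors. The reverse complement of TTGCATCA is itself a case of TGATGNAA, so these searches overlap. TTGCATCA was found in the windows of 4 genes, Aars, Iars, Tars and Yars, and in 0.895% of the 32851 windows of all genes. TGATGNAA was found in those 4 and in Gars, against 3.97% of all windows, and CACGTG in Aars, Ears2, Farsb, Iars and Tars, against 7.15%. The windows with TTGCATCA are shown because they are the members that carry the full 8 letters, with every match to any of the searched motifs in capitals. They lie at chr8:111033592-111033891 (plus strand, Aars), chr13:49681880-49682179 (plus, Iars), chr15:11399609-11399908 (minus, Tars) and chr4:129189653-129189952 (plus, Yars).
Aars: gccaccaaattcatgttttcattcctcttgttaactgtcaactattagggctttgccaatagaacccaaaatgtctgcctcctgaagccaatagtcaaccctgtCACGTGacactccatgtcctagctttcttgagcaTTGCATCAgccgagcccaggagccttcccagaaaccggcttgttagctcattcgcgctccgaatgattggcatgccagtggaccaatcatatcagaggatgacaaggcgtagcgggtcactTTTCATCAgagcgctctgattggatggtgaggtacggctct
Iars: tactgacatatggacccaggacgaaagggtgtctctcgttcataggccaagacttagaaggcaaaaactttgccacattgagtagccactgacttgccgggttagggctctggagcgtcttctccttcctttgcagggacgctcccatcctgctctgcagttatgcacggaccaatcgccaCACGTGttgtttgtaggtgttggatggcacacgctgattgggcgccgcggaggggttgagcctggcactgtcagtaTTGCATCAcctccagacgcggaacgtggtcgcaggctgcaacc
Tars: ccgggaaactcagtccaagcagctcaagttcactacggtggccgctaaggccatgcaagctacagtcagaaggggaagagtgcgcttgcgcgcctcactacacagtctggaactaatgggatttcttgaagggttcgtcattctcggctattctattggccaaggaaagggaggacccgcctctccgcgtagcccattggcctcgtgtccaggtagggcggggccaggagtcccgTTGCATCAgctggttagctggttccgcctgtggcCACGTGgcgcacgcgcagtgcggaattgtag
Yars: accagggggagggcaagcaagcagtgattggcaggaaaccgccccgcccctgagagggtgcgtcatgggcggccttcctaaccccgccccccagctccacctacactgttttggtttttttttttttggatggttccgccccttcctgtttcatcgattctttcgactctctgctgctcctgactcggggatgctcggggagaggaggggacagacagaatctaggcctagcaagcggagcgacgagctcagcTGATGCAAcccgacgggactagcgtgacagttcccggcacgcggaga
Counted from 0 at the annotated start, the first base of this motif lay at position -112 in Aars, 7 in Iars, -15 in Tars and 3 in Yars, and in Yars it lay on the reverse strand. These matches are letters in a window, and binding was not measured in these libraries.

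The libraries of replicates 1, 2 and 3 held 3553547, 2945353 and 3369468 counts, and the 36 genes took 11096, 6798 and 9712 of them (0.312%, 0.231% and 0.288%). Levels are given as TPM, counts per kilobase of exon scaled to the same sum in each library, as mean ± SD over the 3 libraries (n = 3), and lists of values follow the order of replicates 1, 2 and 3. The T cell markers Cd3e, Cd3d, Cd3g, Cd4, Trac and Trbc2 were all detected, meaning that no library had less than 1 TPM. Of 5 Th1 markers 3 were detected, Il12rb2 (14.8 ± 2.01 TPM), Stat4 (5.01 ± 1.87 TPM) and Tbx21. The highest of them, Il12rb2, overlaps Serbp1 on the opposite strand. Tbx21, the gene of T-bet, had 15, 11 and 8 counts, while Ifng had 2, 2 and 1 and Cxcr3 had 2, 1 and 1, no more than the 3 counts that a count of 0 allows. Of the markers of other cell types, the B cell gene Ms4a1, the macrophage gene Lyz2 and the NK cell genes Ncr1 and Klrb1c had 0 counts in every library. The B cell gene Cd79a had 19, 18 and 22 counts (7.34 ± 0.653 TPM) and the CD8 T cell gene Cd8b1 30, 20 and 36 (10.4 ± 2.64 TPM), while Cd8a had 1 count in each library. Csf1r, also a macrophage gene, stood at 160 ± 6.06 TPM and its exons overlap Hmgxb3 on the opposite strand. In bulk RNA, fewer cells of a type and less RNA per cell cannot be told apart.

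Position relative to genes on the other strand bears on every value. The authors counted read pairs with a strand option, and the labels and headers used here do not say whether it matched the library kit. Genes whose exons share bases with an exon on the opposite strand (overlapped genes) held 68.0%, 77.5% and 70.3% of all counts. Genes with no opposite-strand gene within 5000 bases (isolated genes) held 14.1%, 9.52% and 12.9%. In the mitochondrial genome mt-Nd6, which lies on the other strand from the remaining mRNA genes, had 38710, 48540 and 51160 counts per kilobase, while the highest of those 12 genes had 2564, 2087 and 2805. Of those 12 genes, 6 had no more than 3 counts in each library. A count on a gene may therefore hold largely read pairs of its neighbour on the other strand and miss its own. The levels, ranks and ratios below are those of the deposited counts. How far they follow the mRNA of each gene was not tested.

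Synthetase genes of both compartments were counted well above zero. Of the 36 genes 35 were detected, 20 of 20 cytosolic and 15 of 16 mitochondrial, against 41.2% of the 21764 protein-coding genes. The exception was Wars2, the mitochondrial tryptophan enzyme gene, at 0.99 TPM in replicate 3. All 36 had 10 counts or more in every library, above 3, the upper limit on the expected count where 0 was counted. That limit leaves out read pairs of a gene on the other strand. Of the 36, 30 reached 5 TPM in each of the 3 libraries. The median of the 36 genes was 18.6 ± 3.1 TPM, beside 9.77 ± 2.29 TPM for the detected protein-coding genes. Above that second median lay 27 of the 36, made up of all 20 cytosolic genes and 7 mitochondrial ones.

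The cytosolic genes spanned 14.2 to 95.5 TPM, with medians of 45.8, 24.8 and 38.1 TPM in the 3 libraries. Nars, the asparagine enzyme gene (ENSMUSG00000024587), was the highest in every library on exon length, with 612, 302 and 485 counts, or 122, 65.6 and 98.6 TPM. Tars, the threonine enzyme gene (ENSMUSG00000022241, mm10 chromosome 15, 11383663 to 11399658), had 449, 258 and 352 counts, or 89.6, 56.0 and 71.5 TPM. Replicate 1 was highest and replicate 2 lowest for both. Vars, for valine (ENSMUSG00000007029, chromosome 17, 35000987 to 35016322), had 789, 537 and 787 counts, or 74.0, 54.8 and 75.1 TPM. Gars, for glycine in both compartments (ENSMUSG00000029777, chromosome 6, 55038007 to 55079500), had 461, 248 and 427 counts, or 77.8, 45.5 and 73.3 TPM. Replicates 1 and 3 lay close together for Vars and Gars and replicate 2 stood below them. The means of these 4 genes, 95.5 ± 28.5, 72.4 ± 16.8, 68.0 ± 11.4 and 65.5 ± 17.5 TPM, give an order in which only the first place was the same in every library, since Tars, Vars and Gars changed places between libraries. That first place rests on the length used: with the median length of basic GENCODE M21 protein-coding transcripts, chosen after seeing the data, Kars (108 ± 26.9 TPM) and Dars (84.2 ± 30.0 TPM) stood above Nars (74.6 ± 21.1 TPM) in every library.

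Below them lay Kars (lysine) at 64.7 ± 17.1 TPM, Hars (histidine) at 59.5 ± 15.1, Mars (methionine) at 54.3 ± 11.7 and Iars (isoleucine) at 44.9 ± 13.4. Rars (arginine) at 38.4 ± 10.8 TPM, Lars (leucine) at 36.8 ± 9.28, Farsb at 34.8 ± 12.3 and Dars (aspartate) at 34.2 ± 12.7 formed a group that changed order from library to library. Sars (serine) stood at 29.2 ± 5.96 TPM, Qars (glutamine) at 27.2 ± 3.77, Eprs at 22.3 ± 5.8 and Wars (tryptophan) at 20.4 ± 5.75. Eprs had 922, 498 and 822 counts, spread over 18102 exon bases. The 4 lowest genes also lay close together. Aars, for alanine (ENSMUSG00000031960, chromosome 8, 111033144 to 111057664), had 341, 214 and 317 counts, or 19.3, 13.2 and 18.3 TPM, and shares 1326 exon bases with Exosc6 on its own strand. Farsa (ENSMUSG00000003808, chromosome 8, 84856989 to 84869257) had 174, 95 and 132 counts, or 20.2, 12.0 and 15.6 TPM. Yars, for tyrosine (ENSMUSG00000028811, chromosome 4, 129189760 to 129219607), had 201, 123 and 165 counts, or 17.8, 11.8 and 14.9 TPM. Cars, for cysteine (ENSMUSG00000010755, chromosome 7, 143557230 to 143600090), was the lowest at 211, 130 and 176 counts, or 16.9, 11.3 and 14.3 TPM. Replicate 2 was the lowest library in TPM for all 20 cytosolic genes, and replicate 1 was above replicate 3 for 19 of them, all but Vars.

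The 4 genes with TTGCATCA in the windows shown above did not sit together in this order by exon length. Tars stood at 72.4 TPM and Iars at 44.9 TPM, in the upper part, and Aars at 16.9 and Yars at 14.8 TPM, among the 4 lowest. With basic transcript lengths they lay closer together, at 38.0 (Tars), 42.9 (Iars), 21.8 (Aars) and 24.2 (Yars) TPM. These were ranks 15, 14, 24 and 23 of the 36 genes. The subunits of the cytosolic phenylalanine enzyme, which assemble in equal numbers, were unequal in counts per kilobase of exon length. The log2 ratio of Farsa to Farsb was -1.16, -0.82 and -1.30, a mean of -1.09 ± 0.24, with Farsb higher in 3 of 3 libraries, and Farsb shares 248 exon bases with Sgpp2 on the opposite strand. With transcript lengths the mean was -0.61 (all protein-coding transcripts) or -0.16 ± 0.24 (basic set), and with the basic set the ratio was above 0 in replicate 2, at 0.11.

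Many cytosolic enzymes are held in the multisynthetase complex, and the rest are free. The 8 genes of complex enzymes (Dars, Eprs, Iars, Kars, Lars, Mars, Qars and Rars) had a median of 37.7 ± 10.2 TPM and a range of 22.3 to 64.7 TPM. The 12 genes of free cytosolic enzymes had a median of 32.0 ± 9.1 TPM and a wider range, 14.2 to 95.5 TPM. The median was higher for the complex in 3 of 3 libraries, at 46.7, 26.7 and 39.7 TPM against 39.8, 22.0 and 34.2 TPM. By enzyme structure, the cytosolic genes of class I, whose catalytic domain is a Rossmann fold, had a median of 36.6 ± 9.59 TPM over 9 genes, and those of class II, built on an antiparallel sheet, 47.6 ± 13.5 TPM over 10 genes. Among mitochondrial genes the order was the other way round, at 11.04 ± 2.38 TPM over 9 class I genes and 8.03 ± 1.9 TPM over 7 class II genes. Each of these orders held in 3 of 3 libraries, and none was tested.

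**Figure D1:**
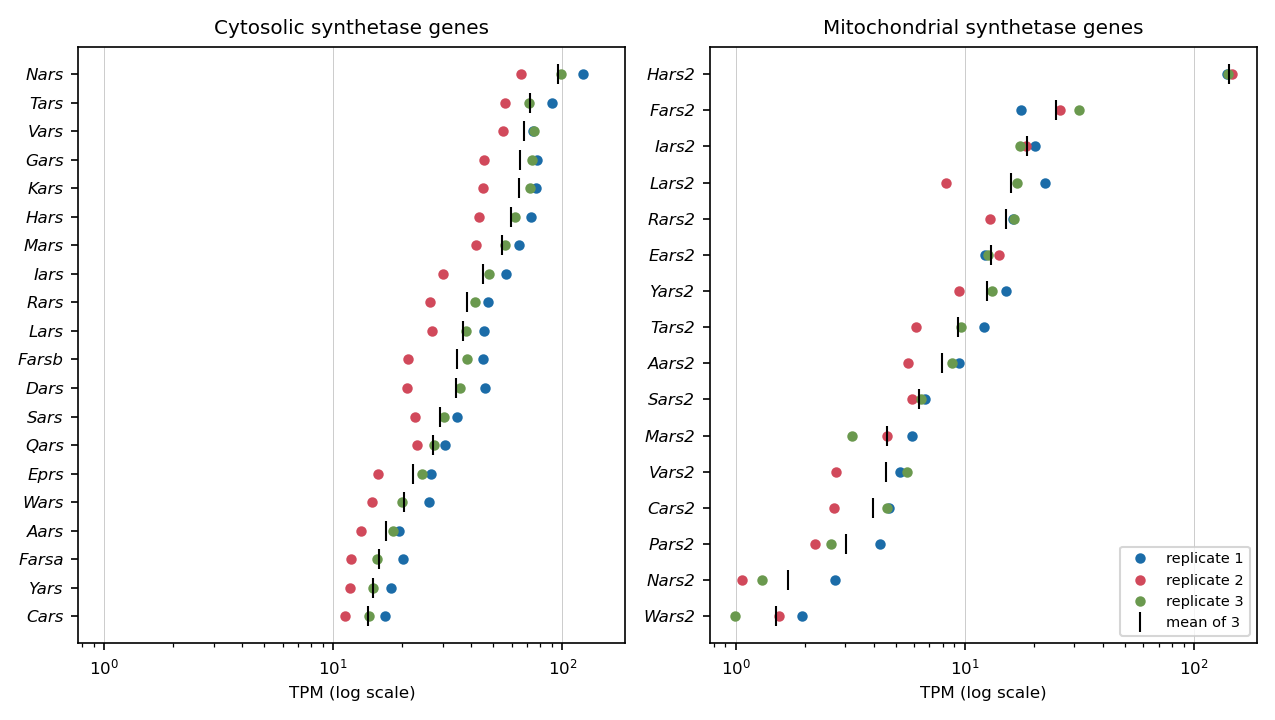
TPM of each cytosolic (left) and mitochondrial (right) synthetase gene on a log axis. Points are the 3 libraries and the vertical tick is their mean. Replicate 2 is the lowest point for all 20 cytosolic genes, and Hars2, at 142 ± 4.03 TPM, stands apart from the other mitochondrial genes.

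The mitochondrial genes were lower as a group and far more uneven. Their medians were 10.8, 5.99 and 9.22 TPM, and they spanned 1.49 to 142 TPM. Hars2, the mitochondrial histidine enzyme gene (ENSMUSG00000019143), had 1130, 1097 and 1125 counts, or 139, 147 and 141 TPM, the most of any of the 36 genes and 39.0%, 49.5% and 42.9% of all counts on the mitochondrial members. Its counts differed little between libraries, and its TPM was highest in replicate 2, where every cytosolic gene was lowest. Fars2, for phenylalanine (ENSMUSG00000021420, chromosome 13, 36117411 to 36537592), had 71, 97 and 125 counts, or 17.6, 26.1 and 31.5 TPM, with replicate 1 the lowest. Iars2, for isoleucine (ENSMUSG00000026618, chromosome 1, 185284726 to 185329396), had 343, 287 and 289 counts, or 20.3, 18.5 and 17.4 TPM. Lars2, for leucine (ENSMUSG00000035202, chromosome 9, 123366927 to 123462666), had 473, 161 and 350 counts, or 22.4, 8.30 and 16.9 TPM. The libraries thus lay close together for Iars2 and far apart for Lars2, whose replicate 2 was the lowest. These 4 genes and Rars2 (arginine, 15.1 ± 2.01 TPM) were the 5 mitochondrial genes above Cars, the lowest cytosolic one.

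Ears2 (glutamate) at 12.97 ± 0.987 TPM, Yars2 (tyrosine) at 12.5 ± 2.84 and Tars2 (threonine) at 9.3 ± 3.03 held the middle of the mitochondrial order. Aars2 (alanine) stood at 7.95 ± 2.03 TPM, Sars2 (serine) at 6.33 ± 0.415, Mars2 (methionine) at 4.55 ± 1.32 and Vars2 (valine) at 4.5 ± 1.55. Counts on the 4 lowest genes were few. Cars2, for cysteine (ENSMUSG00000056228, chromosome 8, 11513977 to 11550783), had 64, 34 and 62 counts, or 4.65, 2.69 and 4.58 TPM. Pars2, for proline (ENSMUSG00000043572, chromosome 4, 106651069 to 106655282), had 25, 12 and 15 counts, or 4.25, 2.22 and 2.59 TPM. Nars2, for asparagine (ENSMUSG00000018995, chromosome 7, 96951505 to 97064758), had 36, 13 and 17 counts, or 2.72, 1.07 and 1.31 TPM. Wars2 (ENSMUSG00000004233, chromosome 3, 99141068 to 99239186) had 22, 16 and 11 counts, or 1.95, 1.54 and 0.99 TPM. The exact Poisson 95% intervals of the Wars2 counts, 13.8 to 33.3, 9.15 to 26.0 and 5.49 to 19.7, overlapped, so its libraries were not told apart. Such intervals cover counting error only, since read pairs that carry no molecular identifier can be copies of 1 molecule.

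The ratio of the cytosolic to the mitochondrial median was steady, at 4.24, 4.14 and 4.13 in the 3 libraries (log2 2.06 ± 0.02). Other summaries were less so. The SD of the log2 ratio was 0.03 without overlapped members, 0.11 without Hars2 and 0.16 from mean log2(TPM + 1). Cytosolic genes held 0.231%, 0.156% and 0.210% of all counts, and mitochondrial genes 0.0816%, 0.0752% and 0.0778%. For 16 amino acids the cytosolic and mitochondrial genes could be set side by side within each library, with Farsa for phenylalanine and Eprs for both glutamate and proline. The cytosolic gene was higher in 3 of 3 libraries for 14 of them, the mitochondrial gene was higher in 3 of 3 for histidine, and phenylalanine was mixed. An exact sign-flip test over 3 libraries cannot go below p = 0.25, so these ratios were not tested.

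By exon length asparagine had the widest gap. The log2 ratio of Nars to Nars2 was 5.49, 5.94 and 6.24 (5.89 ± 0.38), a mean of 59.3-fold. Valine followed, with Vars over Vars2 at 3.83, 4.33 and 3.75 (3.97 ± 0.31), and then tryptophan, with Wars over Wars2 at 3.75, 3.26 and 4.34 (3.79 ± 0.54). Valine and tryptophan overlapped within their libraries, while every asparagine value lay above both. Methionine (3.6 ± 0.48), threonine (2.99 ± 0.18), proline (2.9 ± 0.29) and serine (2.19 ± 0.21) were also above 2 on the log2 scale. Cysteine (1.86 ± 0.21), arginine (1.31 ± 0.25), leucine (1.3 ± 0.36), isoleucine (1.21 ± 0.44) and alanine (1.11 ± 0.1) lay between 1 and 2, and glutamate was at 0.75 ± 0.52.

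At the other end the compartments were close or inverted. For tyrosine the log2 ratio of Yars to Yars2 was 0.24, 0.33 and 0.18 (0.25 ± 0.07), a small gap with the same sign in each library. For phenylalanine Farsa over Fars2 was 0.20, -1.13 and -1.02 (-0.65 ± 0.73), above 0 in replicate 1 alone. For histidine Hars over Hars2 was -0.93, -1.76 and -1.18 (-1.29 ± 0.43), below 0 in every library. Hars and Hars2 lie head to head and share exon bases, so this ratio compares 2 genes whose counts may be mixed.

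These ratios depend on which length a count is divided by. The exon length of the deposited tables joins all exons of all transcripts of a gene, which gives long lengths to genes with many transcript models, such as Lars2 with 11089 bases. The median length of the protein-coding transcripts of the GENCODE M21 basic set was then put in its place. The mean log2 ratio was above 0 for 13 of 16 amino acids, a count of means and not of agreement in 3 of 3 libraries. The means of leucine and isoleucine turned to -0.26 and -0.19, and that of phenylalanine to 0.36. Each was smaller in size than its SD over libraries (0.36, 0.44 and 0.73), which a change of length leaves as it was. Histidine stayed below 0, at -1.97, and asparagine came to 4.53, level with proline at 4.55. With all protein-coding transcripts, short fragments included, the count was 12, threonine also turned, to -0.49, and valine had the widest gap, at 6.44 against 5.12 for asparagine. Both lengths were chosen after seeing the data. The call of a higher cytosolic gene for leucine, isoleucine and threonine, and the first place of asparagine, thus rest on the choice of length.

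**Figure D2:**
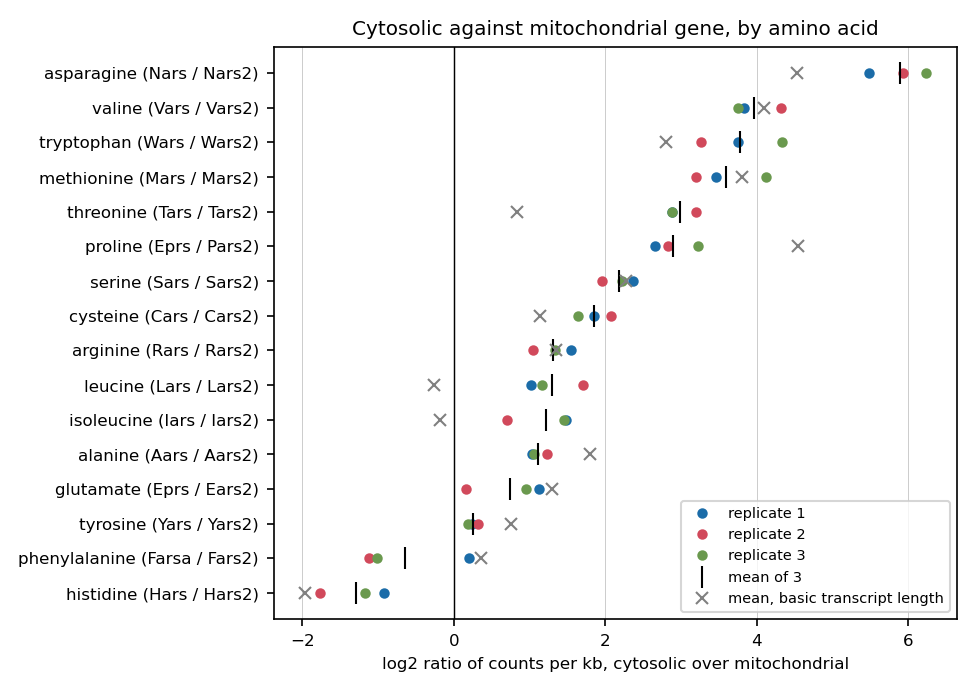
Log2 ratio of counts per kilobase of the cytosolic over the mitochondrial gene for 16 amino acids. Coloured points are the 3 libraries, the vertical tick is their mean and the grey cross is the mean with basic transcript lengths. Histidine lies below 0 in every library, and the crosses of leucine (-0.26) and isoleucine (-0.19) fall on the other side of 0 from their points.

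On their position, 12 of the 36 genes were overlapped on the opposite strand, 11 had an opposite-strand gene within 5000 bases or inside an intron (near genes), and 13 were isolated. The 12 overlapped members were 6 cytosolic (Aars, Cars, Farsb, Hars, Mars and Yars) and 6 mitochondrial (Cars2, Ears2, Hars2, Iars2, Nars2 and Vars2) genes. Their median was 16.1 ± 2.46 TPM, beside 23.6 ± 4.59 TPM for the other 24. Genes at large had the other order. Of the 10216 genes that passed a filter on low counts, given below, 4362 were overlapped, with a median of 24.3 TPM. The median was 9.09 TPM for near and 8.68 TPM for isolated genes. Iars2 shared the largest part of its exons, 2034 of 8885 bases (22.9%) tail to tail with Rab3gap2, whose protein helps activate the GTPase RAB18, plus 114 bases with the antisense gene 2010103J01Rik. Rab3gap2 had 192, 172 and 228 counts against 343, 287 and 289 on Iars2, so that Iars2 was the higher of the pair in every library. All other overlaps covered under 10% of the exon bases of the synthetase gene.

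The members in the strongest imbalance had few counts opposite a neighbour with many. Cars2 had 64, 34 and 62 counts, while Naxd, the repair enzyme gene for hydrated NADH with which it shares 422 bases (350 of them in the Cars2 coding sequence), had 755, 774 and 812. Vars2 had 54, 26 and 57 counts opposite 388, 381 and 397 on the antisense gene Gm20483, with 465 shared bases. Nars2 had 36, 13 and 17 counts opposite 153, 179 and 180 on the noncoding gene C230038L03Rik, with 284 shared bases. In these 3 pairs the neighbour was higher in every library. The same held for Hars, with 276, 150 and 231 counts opposite 1130, 1097 and 1125 on Hars2 over 195 shared bases, 90 of them in the Hars coding sequence. It held as well for Mars, with 422, 250 and 359 counts, which shares 68 bases at its 3′ end with the stress factor gene Ddit3, at 565, 627 and 660 counts. Replicate 2 was the lowest library in counts for each of these 5 synthetase genes, while on the neighbours it was the lowest for Gm20483 and Hars2 alone.

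Elsewhere the synthetase gene held more counts. Farsb had 224, 97 and 187 counts opposite 28, 36 and 29 on Sgpp2, a sphingosine phosphate phosphatase gene. Yars had 201, 123 and 165 opposite 115, 88 and 80 on C77080, with 30 shared bases. Cars lay opposite the pseudogene Gm15580 (1, 3 and 4 counts), and Aars opposite the small RNA gene Gm24103 (15, 10 and 7 counts), both of which had few counts. Ears2 and Ubfd1, head to head over 89 bases, were close, at 120, 127 and 121 against 131, 69 and 106 counts, with Ears2 higher in replicates 2 and 3. Among the near genes several start close to a neighbour that runs the other way. Fars2 begins 54 bases from Lyrm4 (35, 15 and 24 counts), an iron-sulfur cluster assembly gene, and Rars2 13 bases from Orc3 (236, 184 and 211 counts), an origin recognition gene. Sars2 begins 172 bases from Mrps12 (111, 52 and 85 counts), a mitochondrial ribosome gene, Kars 75 bases from Terf2ip and Wars 98 bases from Wdr25.

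**Figure D3:**
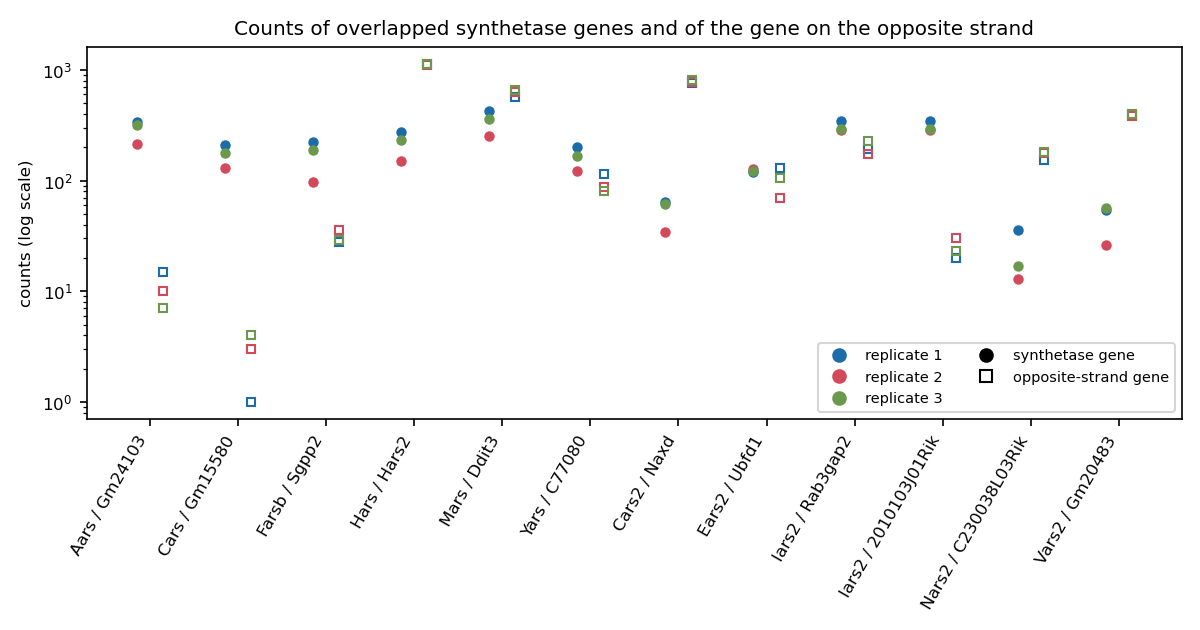
Counts on a log axis for each overlapped synthetase gene (filled circles) and the opposite-strand gene it shares exon bases with (open squares), coloured by library. In Cars2, Nars2, Vars2, Hars and Mars the squares lie above the circles in every library, while Farsb and Aars lie above their neighbours.

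The libraries differed beyond counting error for some members. The test was a chi-square test of the 3 counts of a gene against Poisson error at TMM-scaled library sizes, with Benjamini-Hochberg adjustment over the 10216 genes that passed edgeR's filter on low counts, and it compares libraries, not conditions. All 36 members passed the filter. The test called 12 of the 36 (33.3%) at an adjusted p under 0.05, against 35.6% of all 10216 genes. At this scaling the members were thus called about as often as genes at large. The called genes were 6 cytosolic and 6 mitochondrial, with 4 of the 8 complex genes and 2 of the 12 free cytosolic ones among them.

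The values that follow are counts scaled to a common library size (CPM) with TMM, which makes libraries comparable for 1 gene but not genes with each other. Hars2 had 288, 440 and 322 CPM (adjusted p = 6.41e-23), high in replicate 2, where its count stayed level and the library was scaled up. Lars2 went the other way, with 121, 64.5 and 100 CPM (adjusted p = 3.42e-10), lowest in replicate 2 by a clear margin. Fars2 had 18.1, 38.9 and 35.8 CPM (adjusted p = 2.95e-06), so here replicate 1 stood apart. Dars had 97.3, 63.7 and 83.0 CPM (adjusted p = 0.000193), lowest in replicate 2. Iars2, with 87.4, 115 and 82.7 CPM (adjusted p = 0.000535), and Ears2, with 30.6, 50.9 and 34.6 CPM (adjusted p = 0.000668), were both highest in replicate 2. Mars2 had 32.1, 36.1 and 19.5 CPM (adjusted p = 0.00115), with replicate 3 low. Nars had 156, 121 and 139 CPM (adjusted p = 0.00526) and Iars 144, 111 and 135 CPM (adjusted p = 0.00738), both lowest in replicate 2. Eprs had 235, 200 and 235 CPM (adjusted p = 0.0188), also lowest in that library. Farsb (57.0, 38.9 and 53.5 CPM, adjusted p = 0.0188) and Kars (165, 141 and 173 CPM, adjusted p = 0.0254) completed the 12, again with replicate 2 the lowest. In all, 7 of the 12 called genes were lowest and 5 highest in replicate 2.

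Replicate 2 decides most of these calls. Without it 2 of the 12, Fars2 and Mars2, were called. The calls of Fars2 and Nars were lost without replicate 1, and those of Kars and Mars2 without replicate 3. The negative binomial error of edgeR at its common dispersion allows for spread between libraries. With it none of the 36 was called, while 1 member, Fars2, and 542 of the 10216 genes had an unadjusted p under 0.05. That dispersion was estimated from these same 3 libraries, so few calls over all genes were largely fixed in advance. The absence of calls thus cannot decide whether the members were steady.

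The position of a gene moved with its behaviour in replicate 2. Over all tested genes the median ratio of the count in replicate 2 to that in replicate 1 was 0.519 for isolated, 0.553 for near and 0.853 for overlapped genes. The members had 0.514, 0.607 and 0.602 in these classes, so the 12 overlapped members had a median nearer to that of isolated genes than to that of overlapped genes. They were split. Ears2 (1.06), Hars2 (0.971) and Iars2 (0.837) were near or above the median of overlapped genes, and the other 9 lay between 0.361 (Nars2) and 0.628 (Aars). Among isolated members Lars2 was the lowest at 0.34 (exact 95% interval 0.283 to 0.408), below the median of its class. Among near members Fars2 was the highest at 1.37 (0.996 to 1.88). The test called 4 of 13 isolated, 4 of 11 near and 4 of 12 overlapped members, against 23.7%, 21.1% and 53.0% of all tested genes in these classes. The part of position in the differences between libraries was not tested.

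**Figure D4:**
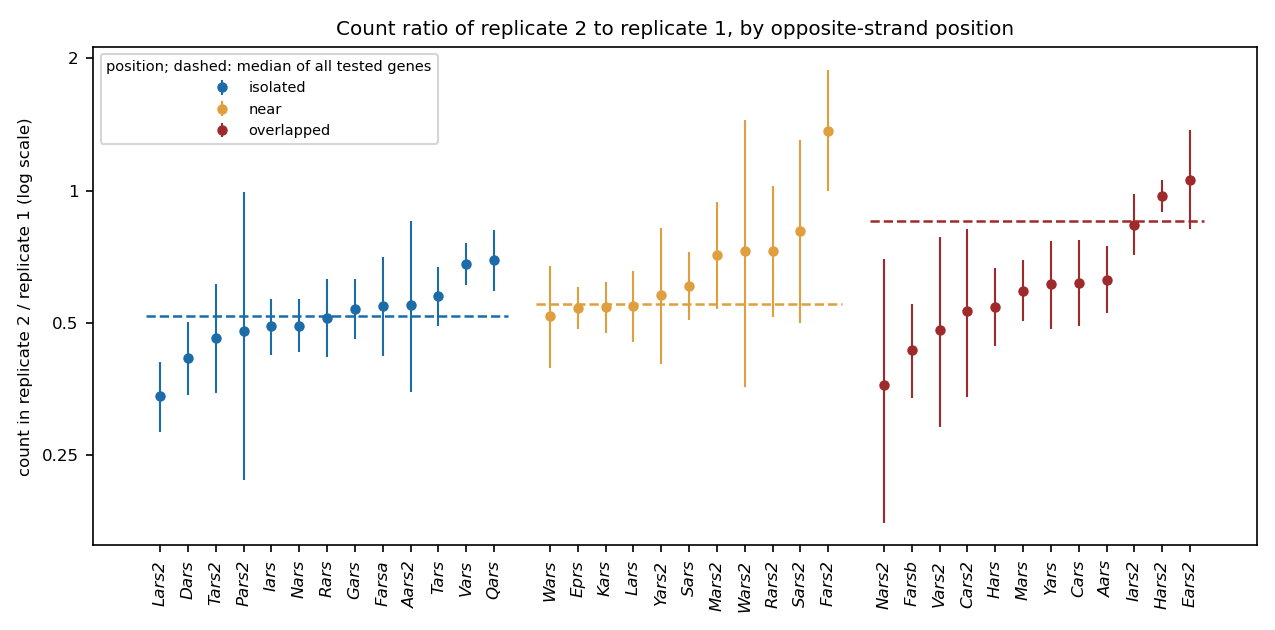
Ratio of the count in replicate 2 to the count in replicate 1 on a log axis for the 36 genes, by position. Bars are exact 95% intervals for counting error and dashed lines are the medians of all tested genes of a class (0.519 isolated, 0.553 near, 0.853 overlapped). Lars2 lies below and Fars2 above the line of its class. Of the 12 overlapped members, Ears2 and Hars2 lie above their line, Iars2 just below it and the other 9 further below.

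How many members were lowest in replicate 2 depends on the scaling. At TMM library sizes 20 of the 36 members were lowest in replicate 2, against 42.6% of all tested genes, and on library totals 30 of the 36 were, against 64.1%. The median log2 difference of replicate 2 from the mean of the other 2 was -0.13 over members and -0.04 over all tested genes with TMM, and -0.47 and -0.38 on library totals. With TMM over isolated genes alone the sign turned, to 0.10 over members and 0.19 over all tested genes. The members thus lay slightly below genes at large. A change of scaling shifts all genes almost alike, so the same order under each scaling was fixed in advance. With TMM scaled within each position class, 13 members (36.1%) were called, against 26.4% of all tested genes. Of these 13, 4 were among the 12.

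Genes that work beside the synthetases were taken as 7 lists of 35 genes, with an eighth list of 5 amino acid response genes. Of these 40 genes 37 were detected and 11 of the 38 tested were called, beside 35.6% of all tested genes. All 3 scaffold genes of the multisynthetase complex were detected. Eef1e1 had 101, 47.1 and 86.6 TPM, Aimp2 had 68.1, 41.8 and 52.4 TPM and Aimp1 stood at 17.2 ± 2.28 TPM. The median for the enzyme genes of the complex was 37.7 TPM. Aimp2 overlaps Eif2ak1 and Aimp1 overlaps Tbck on the opposite strand. In TPM replicate 2 was the lowest of the 3 libraries for each, as for the cytosolic enzymes. At TMM scaling Aimp1 was highest in replicate 2 (53.0, 58.9 and 50.65 CPM). The elongation factors that carry charged transfer RNA, taken with their exchange factors, were the highest list, with a median of 170 ± 28.7 TPM. Eef1a1, which delivers charged transfer RNA to the cytosolic ribosome, had 2350, 1519 and 2286 TPM, and Eef1b2, of its exchange factor, had 350, 216 and 325 TPM, both lowest in replicate 2. The mitochondrial counterparts Tufm and Tsfm were lower, at 32.6 ± 7.13 and 13.4 ± 1.07 TPM.

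Mitochondria make their glutamine-loaded transfer RNA through an amidotransferase. Its gene Gatc had 63.8, 75.4 and 60.5 TPM, highest in replicate 2, and the others of its list were low, with Qrsl1 at 6.38, 3.54 and 3.31 TPM and Gatb and Mtfmt at 3.44 ± 1.43 and 3.05 ± 0.768 TPM. Among the editing and deacylase genes, which remove wrongly joined amino acids, Dtd1 had 16.1, 11.2 and 12.7 TPM and Prorsd1 5.69, 3.23 and 6.04 TPM, while Dtd2 and Aarsd1 stood at 2.39 ± 0.318 and 1.47 ± 0.489 TPM. Tarsl2, a gene similar to Tars, had 3.28, 1.44 and 1.35 TPM, with replicate 1 the highest. For selenocysteine, which is made on its transfer RNA from serine, the gene of the kinase step, Pstk, had 111, 111 and 110 TPM and overlaps Ikzf5 on the opposite strand, whereas the isolated gene of the next step, Sepsecs, had 2.56, 1.31 and 1.92 TPM. Of the tRNA end processing genes, 14 of 15 were detected, with a median of 17.3 ± 5.29 TPM. The highest of them were Tsen34, of the tRNA splicing endonuclease, at 93.0, 121 and 108 TPM opposite Mboat7, and Trnt1, which adds the CCA end, at 97.9, 84.6 and 92.4 TPM opposite Crbn.

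The amino acid response genes were uneven. Ddit3 had 174, 209 and 206 TPM, and overlaps Mars as given above, and Atf4 had 203, 119 and 173 TPM, lowest in replicate 2. Eif2ak4, which encodes the kinase GCN2 that senses uncharged transfer RNA, and its activator Gcn1 stood at 5.27 ± 1.29 and 6.84 ± 1.28 TPM. Asns, the asparagine synthetase gene and a known ATF4 target, had 17, 3 and 13 counts, and in replicate 2 its count was no higher than the 3 that a count of 0 allows. Nars, which uses the same amino acid, had 612, 302 and 485 counts.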

How the data were processed

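Counts of read pairs per gene were deposited by the authors for 3 Th1 libraries. Per the file headers, they were made with featureCounts 1.4.6-p4 over the exons of each GENCODE M13 gene, under strand option 1 and for pairs that had both ends aligned. The build is mm10, per the labels. The aligner version and library kit are not given in the sources used here. Symbols and transcript lengths came from GENCODE M21. TPM was made from the deposited counts and the exon lengths of the same tables. The upper limit that a count of 0 allows, 3 counts, equals 0.844, 1.02 and 0.89 CPM in the 3 libraries. Variation between libraries was tested by chi-square against Poisson error (2 degrees of freedom), with edgeR 4.0.16 (TMM, filterByExpr) in R 4.3.3 and scipy 1.17.1. The test was checked on counts simulated with Poisson error alone, so the check does not cover added spread between libraries. Alternatives were DESeq2 1.42.0 size factors, library totals, no filter, negative binomial error, other lengths and leaving out each library.

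The members and lists were chosen with earlier results of these data known. Every member is named. Values in every library are given for the 4 highest and 4 lowest genes of each set, up to 10 called genes by smallest adjusted p, genes overlapped by 10% or more, the 3 highest and 3 lowest ratios and the 2 highest genes of each related list. A planned comparison of protein sequences was not run, and proteins were not analysed here.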

Additional observations from a re-analysis of the deposited data

How the results depend on the processing

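Of the 36 members, 12 were called. That number was 24 on library totals (66.7%, against 51.7% of all tested genes). It was 0 with negative binomial error, which also took the calls over all genes from 3642 to 9. The dispersion of that error was estimated from these same 3 libraries. Leaving out 1 library gave 2 to 11 members and 971 to 3795 genes, the lowest numbers being without replicate 2. DESeq2 size factors gave 12 members (33.3%, against 34.7% of all tested genes). No filter gave 13 (36.1%, against 19.3% of all genes with at least 1 count). Both sets held all of the 12. The median TPM of the members was 18.6, and 94.4 with TPM taken over genes without overlap, 34.7 with the median length of protein-coding transcripts and 30.7 with that of the basic set. The log2 ratio of cytosolic to mitochondrial medians was 2.06. It was 1.86 from mean log2(TPM + 1), 2.13 without overlapped members, 1.97 over detected members, 1.45 and 1.79 with the lengths of all and of basic transcripts, and 2.16 without Hars2. The lengths and the omission of Hars2 were chosen after seeing the data. Mean log2 ratios reversed for threonine (-0.49, all transcripts), leucine (-1.85 all, -0.26 basic) and isoleucine (-0.086 all, -0.19 basic), where the length itself is what changed. For the other moved values the cause was not tested.

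No paired analysis was possible because there is only 1 group. Library depth limits the rare members: Wars2, Nars2 and Pars2 had 11 to 36 counts, with exact 95% intervals of 5.49 to 49.8 counts over these libraries.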
